A study of Mus musculus with 2 samples.

Results

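Type I interferon response genes are a group of genes that cells switch on after interferons α or β bind their receptor. The 37 genes described here were listed by symbol, and 35 of them were matched among the 32285 genes of the matrix, while Mx1 and Mx2 found no row of that name and are not analysed here. The list was drawn up with expression values of these same cells in view, among them a cluster of skin macrophages led by Irf7, Oas3 and Ifit3, so that the levels given for these genes are descriptions and no test was made on them. The cells came from shaved dorsal skin of male wild-type (WT) mice and were sorted for F4/80, a macrophage surface protein, and for high MHC class II. They made up 1 droplet library from 2 pooled mice aged 9 weeks and 1 library from 2 pooled mice aged 108 weeks, with no treatment and no strain named in the labels. The deposited matrix holds both libraries and tells them apart by a barcode suffix, 1 or 2, that no label ties to an age. They are therefore called library 1 and library 2 of unknown age, no comparison of ages is made, and the main values are given in each.

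The counts are UMIs, molecular identifiers that count each captured RNA molecule once at its 3′ end. Cells were kept with 500 or more genes, 1000 or more UMIs and no more than 10% of UMIs from mitochondrial genes, so that 3797 of 5257 barcodes remained, 2396 in library 1 and 1401 in library 2, with medians of 10761 and 11196 UMIs per cell. Only 1 barcode sequence occurred in both libraries, and it was not kept in both. Clusters were built without the interferon genes and named from marker lists, which gave 1532 macrophage-like, 510 dendritic-like, 826 fibroblast-like, 295 endothelial-like and 68 keratinocyte-like cells. The level of a single gene is given throughout as CPM, its count per 1000000 UMIs of the group, and that of the 35 genes together as UMIs per 10000. A 3′ count does not grow with gene length, but capture differs between genes, so levels are compared within a gene. The label of the samples is macrophage, but the gated cells included many others. Adgre1, the gene of F4/80, had a UMI in 90.9% of macrophage-like, 77.1% of dendritic-like, 10.8% of endothelial-like cells, and 440 CPM in macrophage-like against 4.15 CPM in fibroblast-like cells. Exact 95% intervals are given for counting error alone, because a library is a single pool of mice and its cells do not stand for further animals.

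Interferons α and β bind the receptor made of Ifnar1 and Ifnar2, whose kinases Jak1 and Tyk2 pass on the signal. Stat2 and Irf9 are parts of the complex ISGF3, which binds the interferon-stimulated response element (ISRE) in the promoters of its target genes. Irf7 is both a target and a factor that drives more interferon, and a loop of this kind can amplify the response. Among the products of the target genes are sensors of foreign nucleic acid, proteins that block viral RNA or its translation, the ubiquitin-like modifier Isg15 and the Schlafen family. Skin macrophages, including those derived from blood monocytes, are known both to make and to sense type I interferon.

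Many of the genes lie in families of neighbours on the GRCm38 build. Ifit2, Ifit3, Ifit3b and Ifit1 lie on chromosome 19, Oasl2, Oasl1, Oas2, Oas3 and Oas1a on chromosome 5, and Slfn5, Slfn8, Slfn1 and Slfn4 on chromosome 11. Rsad2 (chr12:26442746-26456452, minus strand) and Cmpk2 (chr12:26469204-26479837, plus strand) face away from each other. The levels of close relatives such as Ifit3 and Ifit3b, Oas1a, Ifi204, Ifi213, Trim30a and the Schlafen genes are uncertain, because reads that fit several copies cannot be assigned to one of them. A RefSeq promoter window on GRCm38.p6, from 250 bases before to 50 bases after the annotated start, was found for 29 of the 35 genes. The ISRE core, GAAANNGAAA on either strand, was in the window of 16 of these 29 genes (55.2%), against 3.99% of the 27025 genes with a window. For comparison, the interferon-γ type element TTCNNNGAA was in 4 of 29 (13.8%), against 9.55% of all genes. The windows of 5 genes that the results turn on are shown with ISRE matches in capitals. They are Isg15 (chr4:156200769-156201068, minus strand), Ifit1 (chr19:34640639-34640938, plus strand), Rsad2 (chr12:26456403-26456702, minus strand), Slfn5 (chr11:82951852-82952151, plus strand) and Irf7 (chr7:141266375-141266674, minus strand).
Isg15: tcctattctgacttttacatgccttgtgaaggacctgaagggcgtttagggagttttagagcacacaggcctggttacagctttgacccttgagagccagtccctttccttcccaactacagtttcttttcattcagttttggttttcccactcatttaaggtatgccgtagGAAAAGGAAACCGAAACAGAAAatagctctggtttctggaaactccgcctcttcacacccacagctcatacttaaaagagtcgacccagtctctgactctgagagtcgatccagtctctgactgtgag
Ifit1: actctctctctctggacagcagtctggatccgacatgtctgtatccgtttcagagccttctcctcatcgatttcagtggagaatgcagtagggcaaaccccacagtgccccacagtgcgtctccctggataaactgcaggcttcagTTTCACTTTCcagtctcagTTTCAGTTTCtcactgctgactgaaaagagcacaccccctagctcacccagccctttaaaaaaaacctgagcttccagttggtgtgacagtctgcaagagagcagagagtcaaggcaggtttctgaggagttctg
Rsad2: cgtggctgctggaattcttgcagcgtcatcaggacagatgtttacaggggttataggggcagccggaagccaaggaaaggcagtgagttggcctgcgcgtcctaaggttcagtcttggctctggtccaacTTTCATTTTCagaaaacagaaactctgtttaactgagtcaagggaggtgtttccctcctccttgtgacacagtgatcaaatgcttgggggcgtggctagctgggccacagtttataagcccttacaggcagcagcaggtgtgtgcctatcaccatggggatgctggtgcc
Slfn5: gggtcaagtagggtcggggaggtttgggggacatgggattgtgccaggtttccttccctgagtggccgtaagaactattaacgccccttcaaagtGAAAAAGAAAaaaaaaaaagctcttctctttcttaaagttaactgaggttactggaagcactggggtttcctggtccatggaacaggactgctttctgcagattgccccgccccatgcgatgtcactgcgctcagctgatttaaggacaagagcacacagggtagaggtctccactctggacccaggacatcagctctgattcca
Irf7: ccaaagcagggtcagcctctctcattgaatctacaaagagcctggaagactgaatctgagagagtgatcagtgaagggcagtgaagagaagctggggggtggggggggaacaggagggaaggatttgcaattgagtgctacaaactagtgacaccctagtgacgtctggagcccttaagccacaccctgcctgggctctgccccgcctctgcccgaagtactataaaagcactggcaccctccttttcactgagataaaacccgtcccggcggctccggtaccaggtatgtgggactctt
In Isg15, 3 overlapping matches ran together, the first of them beginning 78 bases before the start. Ifit1 held 2 matches, and Rsad2 and Slfn5 held 1 each. These letters were not in the window of Irf7. A match is a stretch of letters and not a measured binding site.

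The highest summed level among the 5 main classes was in endothelial-like cells, at 51.3 UMIs per 10000 (50.6 to 52.1), with 49.5 in library 1 and 53.2 in library 2. Macrophage-like cells stood at 28.3 (28.1 to 28.6), with 28.7 and 27.1 in libraries 1 and 2. Dendritic-like cells, at 4.82 (4.67 to 4.98), and keratinocyte-like cells, at 2.51 (2.33 to 2.71), were far lower in both libraries. As whole classes, macrophage-like and dendritic-like cells thus stood well apart, although both carried the transcripts the sort was made for, with the MHC class II gene H2-Ab1 at 7585 and 16024 CPM. Their clusters overlapped, since the macrophage-like clusters 4 and 12 had 8.31 and 4.35 and the dendritic-like clusters ran from 3.33 to 10.1. Dendritic-like cells also held 6470 CPM of the macrophage markers, against 1910 CPM of the dendritic markers. Fibroblast-like cells were the class on which the libraries differed most, with 13.03 in library 1 and 37.1 in library 2 (24.2 together). As a log2 ratio, macrophage-like over fibroblast-like cells came to 0.23 (0.21 to 0.25) together, 1.14 in library 1 and -0.45 in library 2, so the order of these classes changed with the library. The order endothelial-like, macrophage-like, dendritic-like, keratinocyte-like held in each library.

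**Figure D1:**
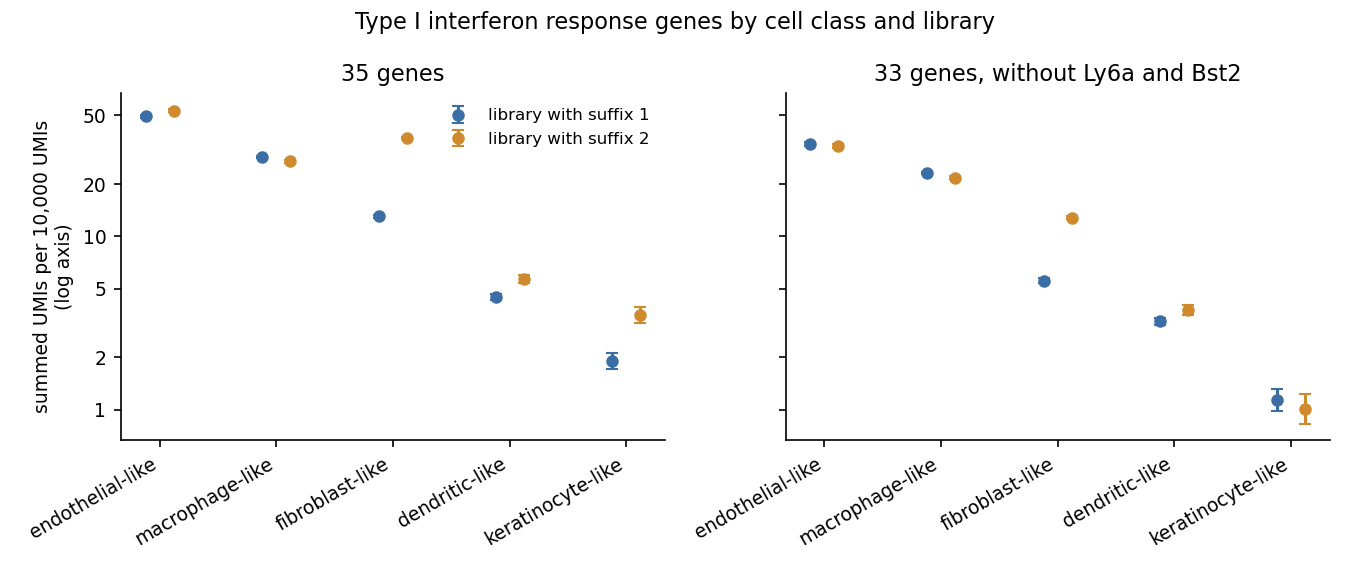
Summed level of the genes (UMIs per 10000 UMIs, log axis) in 5 cell classes, as points for library 1 and library 2 with exact 95% intervals for counting error, for 35 genes on the left and for 33 genes without Ly6a and Bst2 on the right. The endothelial-like cells are highest on both sides, and the fibroblast-like points of the libraries (13.03 and 37.1 on the left) lie farthest apart on the left.

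Much of the fibroblast-like level was a single gene. Ly6a, which encodes the surface protein Sca-1 and is also expressed by resting stromal and vascular cells, gave 58.1% of the 32647 UMIs of these genes in fibroblast-like cells, 25.7% in endothelial-like cells and 7.68% in macrophage-like cells. Without Ly6a and Bst2, another gene expressed at rest, the summed levels were 33.7 in endothelial-like, 22.9 in macrophage-like, 8.95 in fibroblast-like, 3.40 in dendritic-like and 1.09 in keratinocyte-like cells. On these 33 genes macrophage-like cells were above fibroblast-like cells by 1.36 on the log2 scale, libraries together. The libraries still differed in fibroblast-like cells, with 5.56 in library 1 and 12.8 in library 2, against 23.2 and 21.9 in macrophage-like cells. The genes that weighed most in macrophage-like cells were Bst2 (11.4% of the UMIs), Ifi204 (11.3%) and Irf7 (8.35%), and in endothelial-like cells Ly6a, Slfn5 (22.7%) and Isg15 (12.3%). Gene by gene, 18 of the 35 were highest in endothelial-like cells, 15 in macrophage-like cells and 2 in fibroblast-like cells, and 16, 13 and 1 of them had the same leading class in both libraries. Of all 12463 genes with 20 or more UMIs in these classes in each library, 22.0% were highest in endothelial-like, 18.2% in macrophage-like and 21.3% in fibroblast-like cells.

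Of the 3 regulators, only Irf7 led in macrophage-like cells. Its level there was 256 CPM in library 1 and 174 CPM in library 2, against 96.6 and 91.3 CPM in endothelial-like, 19.2 and 31.2 CPM in fibroblast-like, 19.2 and 11.6 CPM in dendritic-like and 7.1 and 4.0 CPM in keratinocyte-like cells. As whole classes, macrophage-like cells lay above every other of these classes in both libraries. Cluster 5, with 256 of the 1532 macrophage-like cells, held 2227 of the 4249 Irf7 UMIs of that class. The other macrophage-like cells had 133 CPM, against 94.0 CPM in endothelial-like cells, libraries together. Irf7 was also uneven among those other cells, as the values by cluster given further below show. Irf9, the DNA-binding partner of ISGF3, was highest in endothelial-like cells at 68.5 and 64.6 CPM, with 40.1 and 34.9 CPM in macrophage-like cells. Stat2 reached 55.6 and 68.4 CPM in endothelial-like cells. Its level in macrophage-like cells (37.2 and 37.8 CPM) was next to that in dendritic-like cells (35.4 and 43.3 CPM), and the log2 ratio of these classes was -0.02 (-0.22 to 0.19). A UMI of Irf7 was found in 33.6% of macrophage-like cells and in 50.2% of endothelial-like cells, at medians of 10124 and 9696 UMIs per cell. The order of these shares goes against the order of the levels and is given as a value only. The part of the uneven spread over clusters in it was not tested.

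The sensors of nucleic acid divided between the classes. Zbp1, a sensor of left-handed nucleic acid, had 93.9 and 96.0 CPM in macrophage-like cells of libraries 1 and 2 and at most 34.0 CPM in any other of the 5 classes in either library. Ifi213, a relative of Ifi204 in the HIN-200 family, had 25.5 and 14.3 CPM in macrophage-like cells and no more than 3.2 CPM in the other classes. Ddx60, a helicase that aids RNA sensing, showed 33.5 and 13.3 CPM there, and 12.4 and 2.7 CPM in endothelial-like cells. These 3 sensors were thus highest in macrophage-like cells of both libraries. Ifih1, which encodes the RNA sensor MDA5, had 48.1 and 46.8 CPM in macrophage-like and 61.5 and 41.1 CPM in endothelial-like cells, so the leading class changed with the library. Ddx58, the gene of the RNA sensor RIG-I, was higher in endothelial-like cells (43.7 and 42.2 CPM) than in macrophage-like cells (25.6 and 24.2 CPM). Ifi204 was high in macrophage-like cells (324 and 304 CPM) and, in library 2 above all, in fibroblast-like cells (143 and 459 CPM).

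Among the 5 main classes, the Ifit genes, whose products bind foreign RNA or block its translation, were led by endothelial-like cells. Ifit1 had 316 and 251 CPM there in libraries 1 and 2, against 35.7 and 49.4 CPM in macrophage-like and 9.4 and 45.4 CPM in fibroblast-like cells. In macrophage-like cells 11.7% had a UMI of Ifit1, in endothelial-like cells 42.0%. Ifit3 stood at 68.5 and 34.2 CPM in endothelial-like and at 33.4 and 34.0 CPM in macrophage-like cells, with nearly equal values in library 2. Ifit2 was close in both classes in library 1 (24.3 CPM in endothelial-like and 25.01 CPM in macrophage-like cells) and higher in endothelial-like cells in library 2 (42.2 against 24.7 CPM). Ifit3b, the close copy of Ifit3, was low throughout, at most 18.3 CPM in any of the 5 classes and libraries. Outside these classes, mast-like cells had 128 CPM of both Ifit2 and Ifit3, on 22 UMIs of each. Schwann-like cells had 55.2 CPM of Ifit3, on 49 UMIs.

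The 2′-5′ oligoadenylate synthetase family was the reverse case. Active Oas enzymes make a messenger that activates an RNA-degrading enzyme. Among the 5 main classes, all 5 genes of the family, with the Oas-like Oasl1 and Oasl2, were highest in macrophage-like cells of both libraries. Oas3 had 54.2 and 40.4 CPM in macrophage-like cells of libraries 1 and 2, and 3.2 and 3.1 CPM in dendritic-like, 0.4 and 2.7 CPM in fibroblast-like and 2.7 and 0.5 CPM in endothelial-like cells. Of all UMIs of Oas3, 92.1% lay in macrophage-like cells. Oasl1 showed the same contrast, with 118 and 113 CPM in macrophage-like and 24.8 and 25.6 CPM in endothelial-like cells. Oas1a (48.3 and 43.2 CPM), Oas2 (24.7 and 20.4 CPM) and Oasl2 (80.9 and 65.8 CPM) were also at their highest there. Endothelial-like cells over macrophage-like cells came to a log2 ratio of -4.98 (-6.43 to -3.86) for Oas3, whereas the ratio was 2.86 for Ifit1, so genes of the same response differed in opposite directions between the same classes.

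Rsad2, the gene of the antiviral enzyme viperin, was nearly equal in macrophage-like cells (178 and 176 CPM in libraries 1 and 2) and endothelial-like cells (165 and 177 CPM). It was low, at 3.3 and 12.7 CPM, in fibroblast-like cells, as in dendritic-like cells at 7.4 and 13.9 CPM. A single macrophage-like cell held 280 of the 3188 Rsad2 UMIs of that class. Cmpk2, the neighbour of Rsad2 and a nucleotide kinase, was higher in endothelial-like (29.1 and 34.2 CPM) than in macrophage-like cells (13.6 and 13.8 CPM). Bst2, the gene of tetherin, which holds budding virus at the cell surface, was at 479 and 407 CPM in endothelial-like, 328 and 311 CPM in macrophage-like and 58.0 and 191 CPM in fibroblast-like cells. Isg20, an exonuclease gene, was highest in fibroblast-like cells, at 48.0 and 39.4 CPM against 23.7 and 31.6 CPM in macrophage-like cells. Ifi44, of the antiviral IFI44 family, was low except in endothelial-like cells, where it had 39.4 and 27.8 CPM. Ifi47, an interferon-inducible GTPase gene, had 98.2 and 110 CPM there and at most 32.99 CPM elsewhere among the 5 classes. Rtp4 (113 and 89.7 CPM) and Xaf1 (50.7 and 53.4 CPM) were likewise highest in endothelial-like cells, with 74.4 and 69.1 CPM and 38.7 and 35.6 CPM in macrophage-like cells.

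Isg15, the ubiquitin-like modifier, had 635 and 632 CPM in endothelial-like cells, 214 and 233 CPM in macrophage-like cells and, for the fibroblast-like class, 48.0 and 133 CPM in libraries 1 and 2. Herc6, which attaches Isg15 to proteins in mice, followed the same order, with 48.6 and 45.9 CPM in endothelial-like and 16.6 and 12.1 CPM in macrophage-like cells. Usp18, which removes Isg15 and dampens signalling at the receptor, differed less, with 25.9 and 16.0 CPM in endothelial-like, 15.5 and 14.7 CPM in macrophage-like and 18.2 and 14.8 CPM in fibroblast-like cells. Trim30a, of the TRIM family, stood at 109 and 107 CPM in macrophage-like and 82.0 and 102 CPM in endothelial-like cells.

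The Schlafen genes, a family tied to growth arrest and virus restriction, split between the classes. Slfn5 reached 1165 and 1162 CPM in endothelial-like cells of libraries 1 and 2, where 93.6% of cells had a UMI, against 148 and 188 CPM in macrophage-like and 90.1 and 197 CPM in fibroblast-like cells. Among the 5 main classes, Slfn1, Slfn4 and Slfn8 were highest in macrophage-like cells. Slfn1 had 41.0 and 36.1 CPM there and at most 2.7 CPM in the other 4 classes, and 93.4% of its UMIs lay in macrophage-like cells. Outside these classes, mast-like cells had 111 CPM of Slfn1, on 19 UMIs. Slfn4 had 53.1 and 44.4 CPM in macrophage-like and 8.6 and 17.1 CPM in endothelial-like cells. Slfn8 was at 50.1 and 50.6 CPM in macrophage-like cells and at most 12.0 CPM elsewhere among the 5 classes. Ly6a changed order with the library, with 689 and 2232 CPM in fibroblast-like and 1042 and 1592 CPM in endothelial-like cells.

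**Figure D2:**
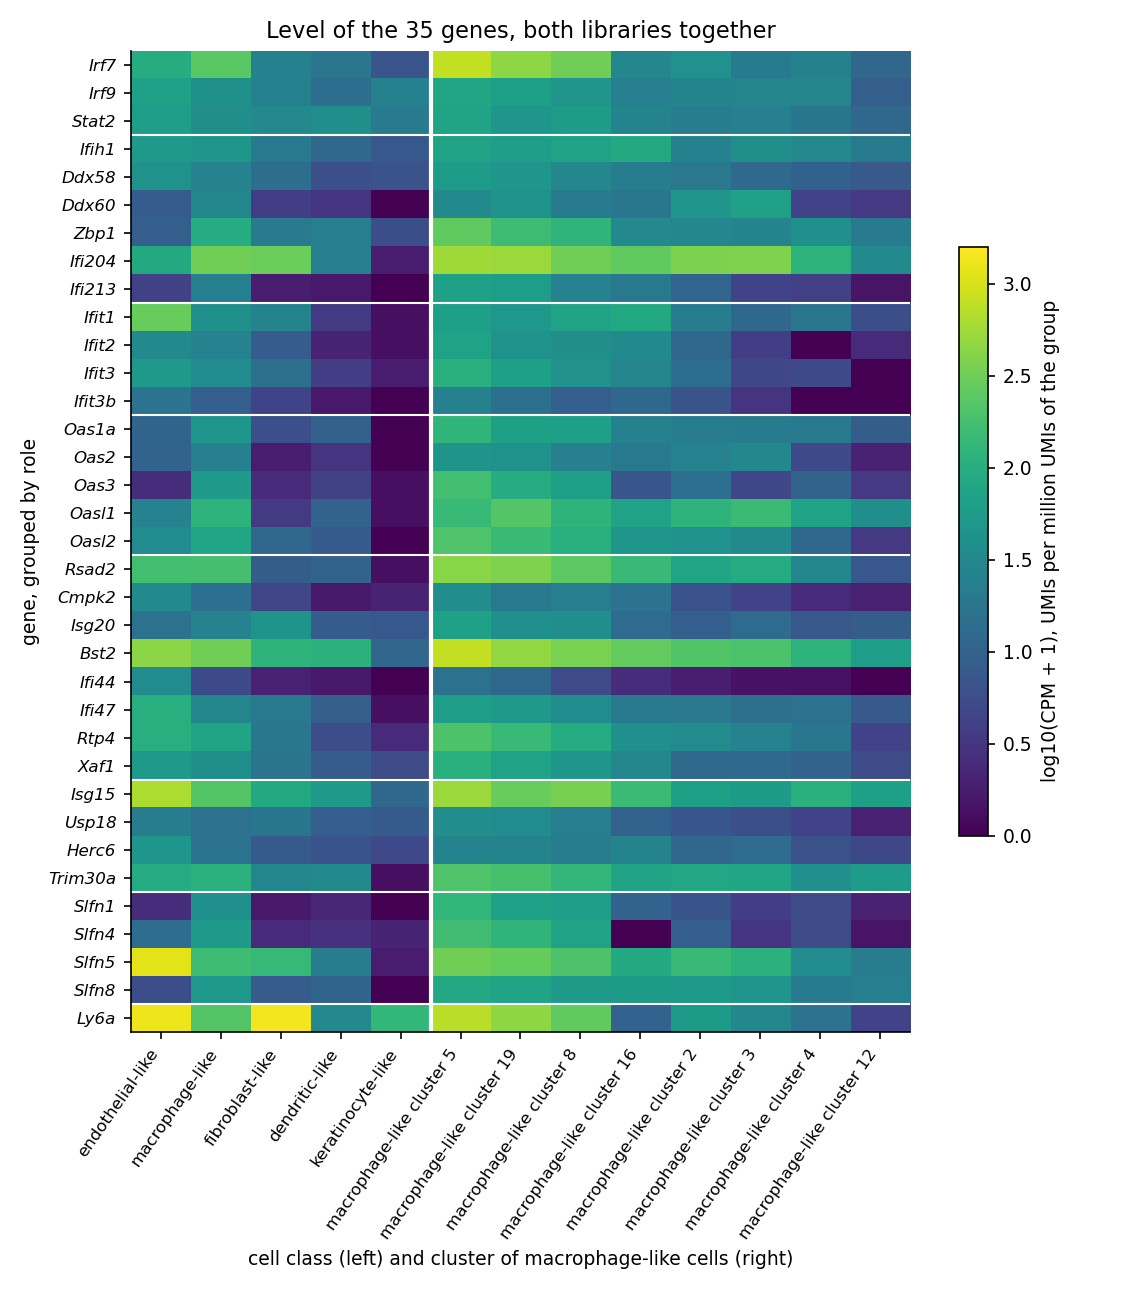
Level of each of the 35 genes (rows, grouped by role; colour, log10 of CPM plus 1, both libraries together) in 5 cell classes on the left and in the 8 clusters of macrophage-like cells on the right. Slfn5, Ifit1 and Isg15 are brightest in endothelial-like cells, Oas3, Slfn1 and Slfn4 in macrophage-like cells, and within the latter cluster 5 is brightest for most genes.

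For comparison with other genes, a gene was counted as higher where its level was at least 2 times higher in both libraries, over genes with 20 or more UMIs in the compared cells of each library. Ifi44 fell short of this minimum in the comparisons of macrophage-like with dendritic-like and fibroblast-like cells, and Oas3, Ifi213 and Slfn1 fell short in that of endothelial-like with fibroblast-like cells. Macrophage-like over dendritic-like cells, 31 of the 34 genes of the response that passed this minimum were higher, against 10.7% of all 9213 genes, with a median log2 ratio of 3.18 against 0.20. Stat2, Usp18 and Bst2 were the exceptions, and Ifi213 (5.10), Slfn1 (5.05) and Slfn4 (4.77) had the largest ratios. Macrophage-like over fibroblast-like cells, 17 of 34 were higher against 14.7% of 11179 genes, and 1, Ly6a, was lower against 21.9%. Endothelial-like over fibroblast-like cells, 21 of 32 were higher against 12.9% of 10757 genes. Endothelial-like over macrophage-like cells the list was divided, with 8 of 35 higher against 18.2% of 9945 genes and 11 of 35 lower against 14.4%. The 8 were Ifi44, Slfn5, Ifit1, Ly6a, Ifi47, Herc6, Isg15 and Cmpk2, and the 11 were Oas3, Slfn1, Zbp1, Slfn8, Ifi213, Oas1a, Oasl1, Slfn4, Ddx60, Ifi204 and Oas2. Genes that pass the minimum partly do so through the class where they are high, and the list was chosen on these cells, so these counts describe the list and support nothing further. The 10 macrophage markers summed to 1477 CPM in endothelial-like cells against 15613 CPM in macrophage-like cells. Their part in the endothelial-like level was not tested.

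The macrophage-like cells fell into 8 clusters whose summed levels ran from 4.35 to 68.8 UMIs per 10000. Cluster 5 had the highest score of the monocyte markers and was led by Spp1, Ly6c2, Ms4a4c and Irf7, the last of them a response gene. Its level was highest, at 69.7 in library 1 (231 cells) and 62.4 in library 2 (25 cells). Cluster 19, led by Lgmn, Slfn4, Fcgr1 and Folr2, followed with 46.7 and 58.2, and cluster 8, led by Cfd, S100a9, S100a8 and Hp, with 35.3 and 36.1. All 3 stood above the other 5 clusters with both libraries pooled. The clusters 2 (Pf4, Ccl8, Cbr2) and 3 (Cd209f, Cd209g, Ccl8) had 16.5 and 15.4, cluster 16, led by the inflammatory genes Ccl3, Ccl4, Il1a and Tnf, had 17.8, and the clusters 4 and 12 with Retnla and Lyz1 among their leading genes had 8.31 and 4.35. Within clusters the cells varied widely, and in cluster 5 the lowest 10% of cells were at 18.0 or below and the highest 10% at 136 or above, around a median of 58.5.

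**Figure D3:**
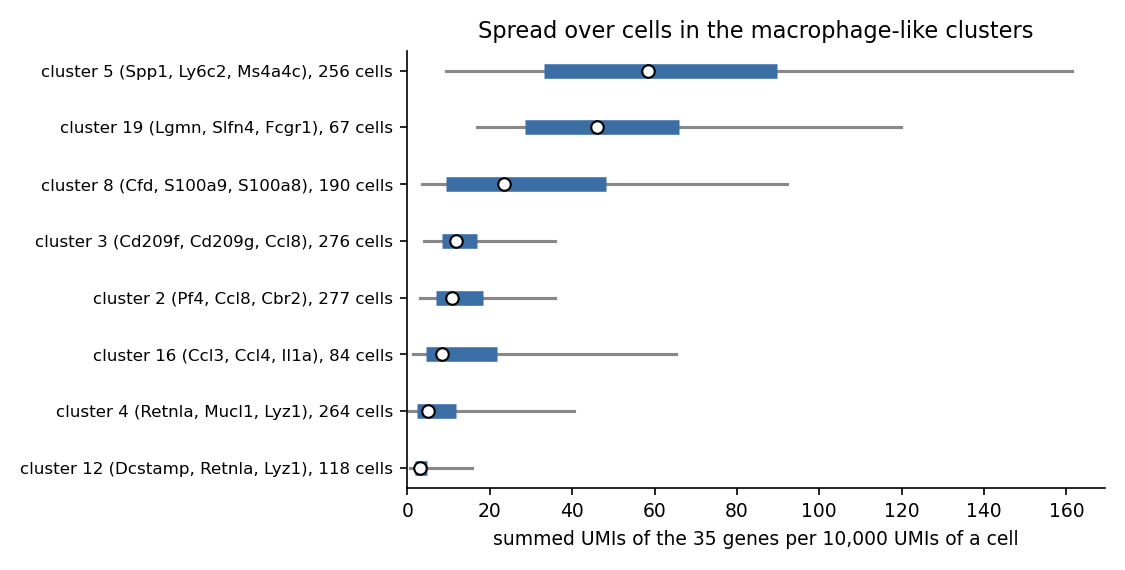
Summed level per cell (UMIs of the 35 genes per 10000 UMIs of the cell) in the 8 clusters of macrophage-like cells, named by leading genes, with the median as a circle, the middle 50% of cells as a bar and the 5th to 95th percentile as a line. Cluster 5, with a median of 58.5, and cluster 19, with a median of 46.0, lie to the right of the rest, and the lines of neighbouring clusters overlap.

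Cluster 5 over the other macrophage-like cells had a log2 ratio of the summed level of 1.72 (1.70 to 1.75), with 1.82 in library 1 and 1.38 in library 2. In it, 20 of the 34 genes that passed the minimum, which are all but Ifi44, were at least 2 times higher in both libraries, against 3.22% of all 8404 genes, with a median log2 ratio of 1.74 against 0.21. The list was drawn up with a macrophage cluster led by Irf7, Oas3 and Ifit3 in view. Irf7 and Oas3 were among the leading genes of cluster 5 too, so this count describes the list and supports nothing further. Irf7 stood at 835 and 505 CPM in cluster 5 of libraries 1 and 2, which gave a log2 ratio of 2.58 (2.49 to 2.66). Oas3 (2.52), Slfn1 (2.49) and Slfn4 (2.46) had similar ratios, and Ly6a had 2.61. Apart from Ly6a, these genes were also highest in macrophage-like cells among the 5 main classes. The ratios did not always follow the leading class. Ifi44 (2.62, short of the minimum), Ifit3 (2.37) and Ifit3b (2.32) were highest in endothelial-like cells. Slfn8 (0.93) and Ifi204 (1.00), highest in macrophage-like cells with libraries together, had smaller ratios. At the other end, Ddx60 (0.19, -0.15 to 0.52), Oasl1 (0.36) and Ifih1 (0.65) differed little, and all 3 were also high in clusters 2, 3 or 16. Just inside the 2-fold limit lay Oas2, with 1.13 in library 1 and 1.28 in library 2, and just outside it Ddx58, with 1.68 and 0.99. The values of library 2 rest on 25 cells of cluster 5 and were lower than those of library 1 for most genes, as for Ly6a (2.94 and 1.57), Stat2 (1.43 and 0.26) and Cmpk2 (2.24 and 0.12).

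**Figure D4:**
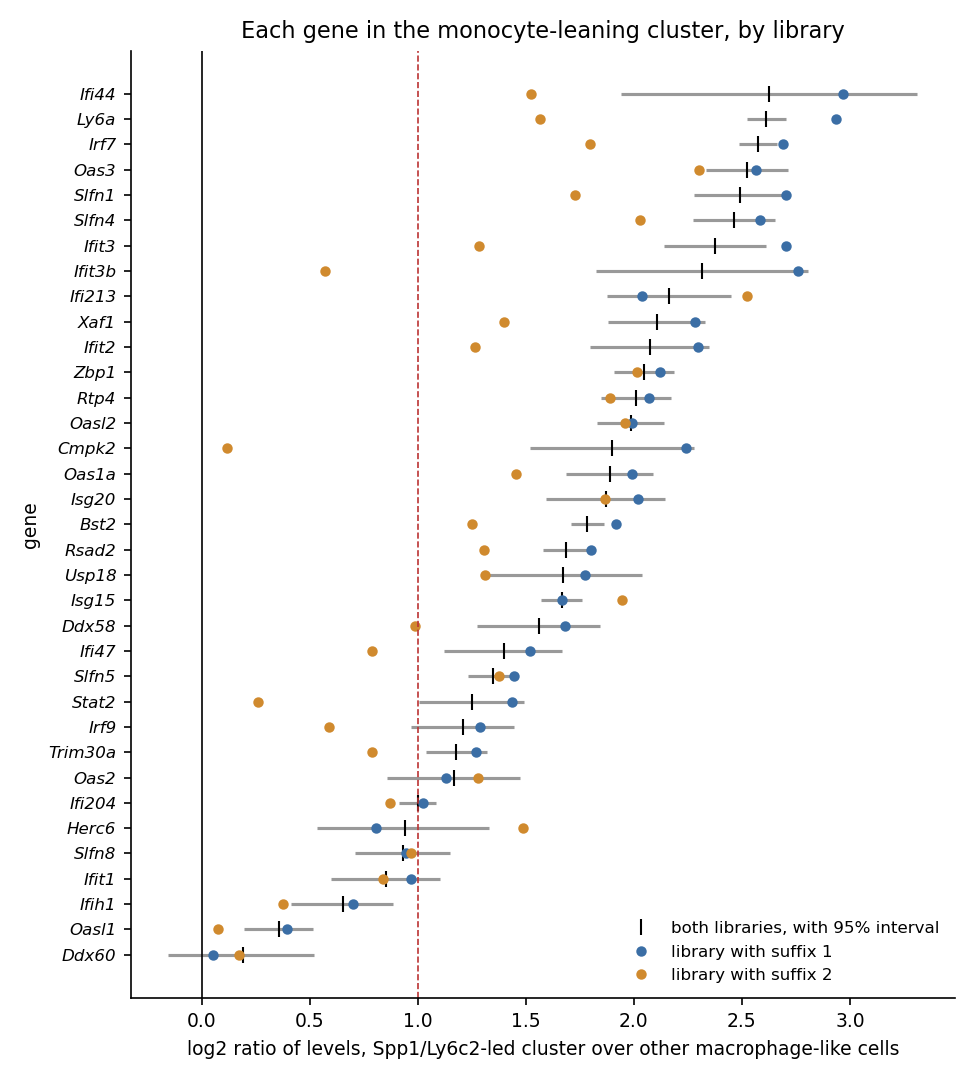
Log2 ratio of the level of each of the 35 genes in cluster 5 (led by Spp1 and Ly6c2) over the other macrophage-like cells, with both libraries together as a tick with its exact 95% interval and each library as a point; the dashed line marks a 2-fold higher level. All ticks lie above 0, from Ddx60 (0.19) to Ifi44 (2.62), and most points of library 2 lie left of those of library 1.

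Cluster 5 was singled out by its score of the monocyte markers, so a high sum of these markers follows from that choice. In it they summed to 3695 CPM over 7 of 7 genes, against 1288 CPM in all macrophage-like cells, cluster 5 included. The 10 macrophage markers were all present, at 13838 CPM. Of the markers of plasmacytoid dendritic cells, which are known for making interferon, 5 of 6 had a UMI and summed to 160 CPM against 193 CPM in all macrophage-like cells, with Ccr9 at 0. The neutrophil markers summed to 80.3 CPM, with S100a9 and Cxcr2 at 0. In cluster 8 the monocyte markers were at 1841 CPM and the neutrophil markers at 456 CPM, with 5 of 5 genes present, and their part in the level of cluster 8 was not tested.

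The clusters with high levels did not all have the same genes. Slfn4 ran from 165 CPM in cluster 5, 122 CPM in cluster 19 and 68.4 CPM in cluster 8 to 7.9 CPM or less in clusters 2, 3, 4 and 12, and had no UMI in cluster 16. Irf7 had 454 CPM in cluster 19 and 316 CPM in cluster 8, but 29.1 CPM in cluster 16. Ifit1 was higher in cluster 16 (87.4 CPM) and cluster 8 (73.5 CPM) than in cluster 5 (62.5 CPM), and Ifih1 likewise with 87.4 CPM in cluster 16 against 68.9 CPM in cluster 5. Cluster 16 thus had Ifit1 and Ifih1 without much Irf7 or Slfn4, but it holds 84 cells. Its Ifit1 level was 68.9 CPM in library 1 and 162 CPM in library 2 with 16 cells. A single cell of library 2 held 219 of the 1163 response gene UMIs of this cluster, and its part was not tested. Ddx60 was highest in cluster 3 (67.5 CPM) and cluster 2 (45.5 CPM), against 32.1 CPM in cluster 5. Oasl1 had 218 CPM in cluster 19 and 151 CPM in cluster 3, against 143 CPM in cluster 5.

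Among vascular cells the response genes differed between blood and lymphatic endothelium. Cluster 6, led by the capillary genes Gpihbp1, Timp4 and Fabp4, had 51.1 in library 1 and 63.7 in library 2, and cluster 22, led by Selp, Sele and Lrg1 of venules, had 44.2 and 31.4. Lymphatic endothelial-like cells (56 cells, led by Ccl21a and Mmrn1) had 10.6 and 17.1. Endothelial-like over lymphatic endothelial-like cells, 14 of the 27 genes that passed the minimum were at least 2 times higher in both libraries, against 8.48% of 7615 genes, while 8 genes, Oas3 and Slfn1 among them, had too few UMIs. Ly6a led with a log2 ratio of 6.73 (5.89 to 7.73), then Rsad2 with 4.92 (3.69 to 6.55) on 5 lymphatic UMIs, while Zbp1 was lower in endothelial-like cells (-1.98, -2.75 to -1.19). Bst2 was high in both, with 443 CPM in endothelial-like and 350 CPM in lymphatic endothelial-like cells. A further group of 98 cells without a name, led by haemoglobin genes with markers of pericytes and endothelium, had a summed level of 51.8.

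The fibroblast-like clusters were unevenly spread over the libraries. Cluster 0, led by Myoc, Ptx3 and Cxcl5, held 18.6% of the fibroblast-like cells of library 1 and 56.3% of those of library 2, and cluster 9, led by Col1a1 and Col1a2, held 44.7% and 0.394%. Their summed levels, libraries together, were 50.9 and 13.3, whereas cluster 0 alone had 42.9 in library 1 and 52.6 in library 2. The libraries were therefore closer within cluster 0 than over all fibroblast-like cells, where their mix of clusters differed, and the part of that mix in the gap was not tested further. Cluster 0 over the other fibroblast-like cells, a comparison chosen after its level had been seen, had 11 of 24 genes at least 2 times higher in both libraries, against 2.89% of 9763 genes, and the other 11 genes fell short of the minimum. Slfn5 had 617 and 370 CPM there in libraries 1 and 2 (log2 ratio 3.23, 3.07 to 3.38), Ifi204 had 737 and 684 CPM, and Ly6a had 2023 and 3044 CPM, which was 1.84 and 0.98 above the others on the log2 scale. Oas3, Slfn1 and Slfn4 stayed at or below 4.2 CPM in cluster 0 in each library, where macrophage-like cells had 36.1 CPM or more of each. The least of all was in cluster 13, led by Prlr and Slc26a7, with 4.22.

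Outside the 5 classes the cells were few. The 32 mast-like cells had a summed level of 43.1 (40.1 to 46.3), with 39.1 in library 1 and 47.9 in library 2, and a median of 3536 UMIs per cell. Only 3 of these cells held 549 of the 741 UMIs of the class (74.1%), so the level rests on few cells. The median cell had 16.8, and without Ly6a and Bst2 it had 2.42, with none in 40.6% of cells. Over all other cells, Ifit2 (log2 ratio 3.05), Slfn1 (2.90) and Ifit3 (2.47) had their largest mast-like ratios, at 22, 19 and 22 UMIs. In the 126 Schwann-like cells (9.95) the leading ratios were those of Ifit3 (1.27), Xaf1 (1.05) and Ifit3b (1.05), in the 71 pericyte-like or smooth muscle-like cells (11.0) those of Ifi47 (1.07), Irf9 (1.03) and Stat2 (0.48), and in the 41 T-like or NK-like cells (9.88) that of Ifi47 (0.93), followed by Bst2 (0.00) and Slfn8 (-0.21). The 142 skeletal muscle-like cells had 3.44, and even their leading ratios, of Ddx58 (-0.03), Isg20 (-0.11) and Ifit3b (-0.32), were not above 0. Lymphatic endothelial-like cells led in Ifi44 (1.22), Irf9 (1.05) and Isg15 (0.65), and the unnamed cells in Ifit1 (2.51), Slfn5 (2.51) and Ifi47 (2.30). Dendritic-like cells had no gene above the rest, since their leading ratios were those of Stat2 (-0.01), Usp18 (-0.95) and Trim30a (-1.06). In keratinocyte-like cells the leading ratios, of Irf9 (-0.52), Stat2 (-0.96) and Usp18 (-1.10), were below 0 as well.

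The UMIs of the response genes were held by few cells. The 394 cells with most of them, 10.4% of 3797, held 50% of the 120118 UMIs, while 23.4% of cells were needed for 50% of the UMIs of all genes. The share was 9.43% in library 1 and 12.0% in library 2. Of the 394 cells, 181 were macrophage-like, 79 fibroblast-like, 79 endothelial-like and 42 belonged to the unnamed cluster, and 88 of the macrophage-like ones lay in cluster 5, which is 34.4% of that cluster. Within macrophage-like cells alone, 9.14% of cells held 50% of the UMIs, and within endothelial-like cells 21.0%. For the UMIs of all genes these shares were 26.9% and 24.1%.

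**Figure D5:**
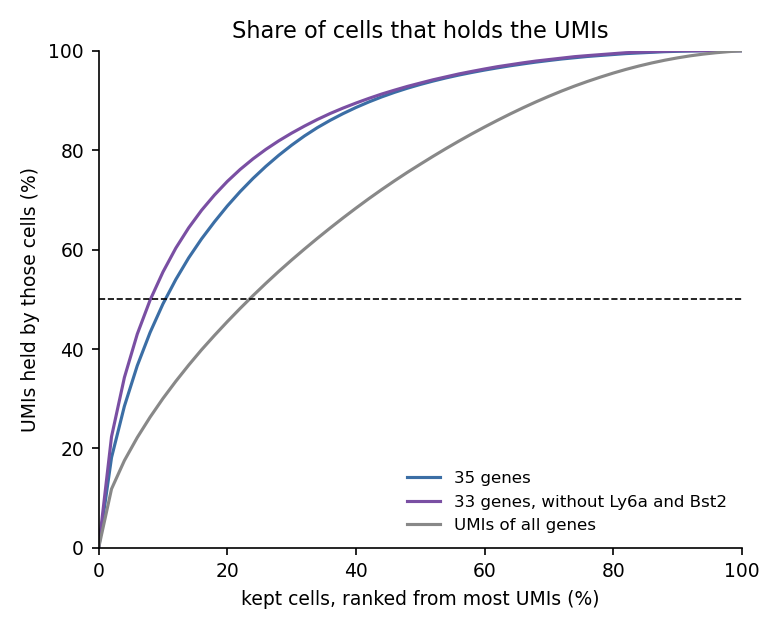
Running share of UMIs (y axis, %) held by the kept cells ranked from most UMIs (x axis, % of 3797 cells), for the 35 genes, for 33 genes without Ly6a and Bst2, and for the UMIs of all genes. The dashed line at 50% is crossed at 10.4%, 8.06% and 23.4% of cells.

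To compare shares of cells at equal depth, each cell was thinned to 2000 UMIs, which left out 64 macrophage-like, 47 fibroblast-like, 22 endothelial-like, 7 dendritic-like and 2 keratinocyte-like cells. These shares leave out Ly6a and Bst2 and count the other 33 genes. At least 3 different genes of these 33 had a UMI in 65.6% (59.6 to 71.2) of endothelial-like, 38.4% (35.9 to 41.0) of macrophage-like, 18.5% (15.8 to 21.4) of fibroblast-like and 3.18% (1.83 to 5.11) of dendritic-like cells. Among keratinocyte-like cells, 0 of 66 did, and 3 counts in 66, the limit set for a count of 0, would be a share of 4.55% of cells with such UMIs. Any of the 33 genes had a UMI in 39.0% of the thinned dendritic-like and in 7.58% of the thinned keratinocyte-like cells. Unthinned, the shares with at least 3 of the 33 genes were 93.2%, 77.0%, 72.6%, 40.4% and 39.7%, in the same order of classes. In cluster 5 the thinned share was 84.0%, in cluster 19 81.8% and in cluster 8 52.6%.

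Genes of the response went together within cells, but the list was drawn up with these cells in view, so this describes the list only. Alternate places in the list made the sets, which put close relatives such as Ifit3 and Ifit3b in different sets. With the genes split into a set of 18 and a set of 17, the 10% of macrophage-like cells with the most UMIs of the first set in 2000 had 10.9 UMIs of the second set, against 1.87 in the other cells, a log2 ratio of 2.54 (2.45 to 2.63), with 2.44 in library 1 and 3.31 in library 2. Within single clusters the ratio did not follow the summed level. It was 2.71 in cluster 16, 2.38 in cluster 8, 2.33 in cluster 4 and 1.90 in cluster 5, against 1.38 (0.98 to 1.76) in cluster 19, 1.28 in cluster 2 and 1.09 in cluster 3, and in cluster 12 the interval included 0 (0.85, -0.30 to 1.85). Some of these values rest on few cells, since the high groups held 9 cells in cluster 16, 19 in cluster 8 and 7 in cluster 19. The cells with the highest summed levels were not left out here, and their part in these values was not tested. Fibroblast-like and endothelial-like cells had 1.89 and 1.77.

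A pair of cells stood far from all others, chosen after their values were seen. A cell of cluster 5 in library 1 had 441 of its 4536 UMIs (9.72%) on the response genes, 280 of them on Rsad2 and 26 on the neighbouring gene Cmpk2. A cell of cluster 8 in library 2 had 268 of 2767 UMIs (9.69%), spread over 29 of the genes, with 49 on Isg15, 47 on Rsad2 and 34 on Ifit1. The next cell had 3.17%, and 139 of 3797 cells had at least 1% of their UMIs on these genes, 72 of them macrophage-like and 33 endothelial-like. Without this pair the summed level of cluster 5 was 67.3 and that of macrophage-like cells 27.9, but Rsad2 in cluster 5 was 325 CPM in place of 424 CPM and Cmpk2 26.5 CPM in place of 35.7 CPM.

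The interferon genes themselves had few UMIs. Of 20 type I and III interferon genes, 16 had no UMI. Ifnb1, the gene of interferon β, had 110 UMIs in 24 cells, 20 of them in library 1 and 4 in library 2, and Ifnab and Ifnk had 2 UMIs each. Macrophage-like cells held 108 of the Ifnb1 UMIs in 22 of 1532 cells (1.44%, 0.902 to 2.17), with 1 of 510 dendritic-like, 1 of 826 fibroblast-like, 0 of 295 endothelial-like and 0 of 68 keratinocyte-like cells. For endothelial-like cells, 3 counts in 295 would be 1.02% of cells with a UMI, which says nothing of cells that express the gene below detection. The macrophage-like UMIs lay in cluster 8 (41 UMIs in 6 cells), cluster 4 (29 in 7), cluster 2 (25 in 2) and cluster 16 (7 in 3), and cluster 5, with the highest response, held 4 UMIs in 2 cells. The 3 cells with most held 56 of the 110 UMIs. The macrophage-like cells with an Ifnb1 UMI had 52.4 UMIs per 10000 of the response genes against 27.8 in those without, with a range from 5.54 to 140 over the 22 cells, inside the range of the other cells.

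Genes upstream of the response, and other genes tied to interferon, were read in cluster 5 by the same rule. Of 6 receptor and signalling genes that passed the minimum, none was 2 times higher or lower in cluster 5 in both libraries. Ifnar2 had 177 CPM in macrophage-like, 146 CPM in endothelial-like and 87.6 CPM in fibroblast-like cells, Jak1 had 321, 438 and 409 CPM, and Il10rb had 164, 52.9 and 18.2 CPM. Among 13 sensors and adaptors, Dhx58 and Ikbke were higher in cluster 5 by this rule, while Unc93b1 (492 CPM in macrophage-like cells), Irf5 (222 CPM) and Myd88 (66.5 CPM) were not. Of 6 brakes on the response, Ptpn6 and Adar were higher, and of the most abundant, Socs3 had 231 CPM in macrophage-like, 873 CPM in fibroblast-like and 1176 CPM in endothelial-like cells, Samhd1 had 285, 95.2 and 124 CPM and Socs1 13.4, 206 and 67.6 CPM. Among 15 genes tied to interferon γ, Irgm1 and Igtp were higher in cluster 5 and Iigp1 was lower, where 3.22% of all genes were higher and 2.67% lower. By leading class, 14 of the 19 genes tied to interferon γ were highest in endothelial-like cells, where 22.0% of the 12463 genes were, with Iigp1, an immunity-related GTPase gene, at 1474 CPM there against 12.0 CPM in macrophage-like cells, and Irf1 at 632 against 46.0 CPM. Ifngr1, a chain of the interferon γ receptor, was closer, at 141 against 156 CPM. Of 42 other interferon-induced genes, 16 were higher in cluster 5 and 1, Ifi27, was lower. The most abundant of that list were Ifitm3 (1530 CPM in macrophage-like and 3556 CPM in endothelial-like cells), Ifitm2 (1082 and 1512 CPM) and Ifi27l2a (1122 and 92.3 CPM). Among the 16, named here after their values were seen, Ms4a4c had 872 CPM in cluster 5 against 156 CPM in the other macrophage-like cells and Lgals3bp had 442 against 97.3 CPM.

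Genes whose level followed the summed response most closely over the 26 clusters of at least 30 cells, outside all of these lists, were Lgals9 (Pearson r = 0.90), Rnf213 (0.90), Tmem30a (0.82), Nmi (0.82), Tmem184b (0.81), Xdh (0.80), Mndal (0.80), Cfb (0.80), Sat1 (0.80) and Parp12 (0.79). The clusters share libraries and differ in depth and cell type, so these values only describe likeness across 26 points. Positions of all 35 genes follow GENCODE vM21 on GRCm38, with Irf7 at chr7:141262706-141266481, Slfn5 at chr11:82951349-82964840, Isg15 at chr4:156199424-156200818, Ifit1 at chr19:34640871-34650009, Oas3 at chr5:120753098-120777661 and Ly6a at chr15:74994877-74998031.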

How the data were processed

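The authors made whole-number UMI counts with Cell Ranger 4.0.0 on the mm10 build, per the labels and the file header, from 3′ droplet libraries (v3.1 chemistry). The deposited counts are not normalized, and 1 matrix pools both libraries. The members and gene lists were chosen with earlier results of these data known. From the counts, cells were filtered, scaled to 10000 UMIs and logged, and 2000 variable genes without the interferon genes, 30 principal components with 15 nearest neighbours were used for clustering by the Leiden method at resolution 1 (Python 3.11.15, scanpy 1.11.5, leidenalg 0.10.2), which gave 28 clusters. A cluster was named for the list with the highest score, where 3 or more of its markers reached 20 CPM and were 2 times above the median over clusters. It was left unnamed where its leading genes held more markers of another class, or where UMIs were low and no own marker led. The 98 unnamed cells had 8 raised endothelial markers but more leading genes of pericytes or smooth muscle. The rule that macrophage and monocyte markers count as 1 class was set after the clusters were seen, and names end in like because they are rebuilt. Doublets were not removed, other than in an alternative that took out 42 cells. UMIs were summed per class and library. In a log2 ratio a sum under 3 is replaced by 3 counts. A single pool of mice in each of 2 libraries allows no test, so exact Poisson and Clopper-Pearson intervals are given. Only the 2-fold calls and the intervals of ratios were checked, on simulated Poisson counts that hold no clumping of UMIs in single cells. Named in the text are the 10 genes with most UMIs in macrophage-like cells, the 3 regulators, the 3 with the largest ratio in each class, the 3 most abundant of each other list, and the 10 most alike, along with genes chosen after their values were seen. The alternatives changed the filter, clustering, gene set, library, weighting, naming, doublets, thinning and minimum count.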

Additional observations from a re-analysis of the deposited data

Results flagged for a closer look

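The 1460 barcodes left out by the cell filter, which enter no comparison other than, for some of them, the alternative with the looser cell filter, carried 9.60 UMIs of the response genes per 10000, above the limit that a count of 0 allows, with 7.99 in library 1 and 11.6 in library 2, against 20.7 and 29.1 in the kept cells. The lower level of these barcodes is given as a value only.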

How the results depend on the processing

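Macrophage-like over fibroblast-like cells had a log2 ratio of 0.23, which changed sign in library 2 alone (-0.45) and as a mean over cells (-0.14). It was 1.14 in library 1, 1.36 without Ly6a and Bst2, 0.71 with classes from each cell's own markers, 0.067 with the looser and 0.35 with the stricter cell filter, 0.16 at resolution 2 and 0.20 without likely doublets, and the cause of these shifts was not tested. Cluster 5 (256 cells) over the other macrophage-like cells (1.72) had 1.82 and 1.38 in libraries 1 and 2, 1.63 without Ly6a and Bst2 and 1.92 as a mean over cells. Where cells were clustered anew, the cluster with the highest monocyte score differed in size and is not cluster 5, and its ratio was 2.04 at resolution 0.5 (494 cells), 1.66 without likely doublets (400 cells) and 0.85 with the stricter filter (76 cells). With the response genes among the variable genes it was 2.20 (133 cells), with 32 genes at least 2 times higher, but there the same genes set the clusters. Under the stricter filter 2 genes were at least 2 times higher in place of 20, and the cause was not tested. The share of cells holding 50% of the UMIs (10.4%) was 12.0% in library 2, 8.06% without Ly6a and Bst2, 12.4% after thinning, 9.10% with the looser and 12.0% with the stricter filter. The log2 ratio between the sets of genes (2.54) was 2.66 unthinned, 2.83 for the highest 5% of cells and 2.64 with the looser filter. Leaving out the pair of cells farthest out, chosen after seeing the data, gave 0.21 and 1.70 for the ratios of the summed level. With 1 pool of mice in each library, no value can be set against the spread between animals.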
